A study of Mus musculus with 6 samples.

Results

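Cemip and 8 other genes that make, break down or bind hyaluronan were followed across the bulk RNA-Seq libraries of gastrocnemius/plantaris (GP) muscle. The 9 genes, of 24421 listed, were chosen by symbol for these functions with results of the same comparison already known. Their differences between the labelled groups are therefore given as a description, and where calls of these genes are counted, the counts are not evidence. The libraries came from 3 mice labelled Ctrl (Net39 fl/fl, without Cre) and 3 labelled cKO (HSACreERT2;Net39 fl/fl), one mouse per library. All the mice were male and were 5 months old, with tamoxifen given 3 months earlier, to the Ctrl mice too. The labels give their strain background as B6C3F1, while the methods name B6C3F1 zygotes and a later cross of the founders to C57BL/6N. In the labelled cKO mice the human skeletal actin promoter drives CreERT2 in muscle fibers and not in satellite cells, so the design does not target the other cells of whole muscle.

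Hyaluronan is a long, unbranched sugar polymer of the matrix between cells, and in muscle it lies mainly in the connective tissue around fibers and fascicles. It is extruded by the membrane synthases Has1, Has2 and Has3, and cut by the hyaluronidases Hyal2 at the cell surface and Hyal1 in the lysosome. Cemip, a secreted protein, binds hyaluronan and is needed for its depolymerization in fibroblasts, and Tmem2 (also named Cemip2) is its transmembrane relative. Cd44 is the main cell-surface receptor, and Tnfaip6 (TSG-6) transfers protein heavy chains onto the polymer in inflamed or remodeling matrix.

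Cemip and Has1 are both read from the minus strand of GRCm38 (mm10), Cemip on chromosome 7 between 83932857 and 84086502 and Has1 on chromosome 17 between 17843323 and 17855205. The 250 bases before the RefSeq start site are shown for these genes, which stood furthest apart between the labelled groups. The Cemip sequence is chr7:84086506-84086755 and the Has1 sequence is chr17:17855189-17855438, both read 5′ to 3′ on the minus strand of GRCm38.p6, with capitals marking the motifs described next.
Cemip: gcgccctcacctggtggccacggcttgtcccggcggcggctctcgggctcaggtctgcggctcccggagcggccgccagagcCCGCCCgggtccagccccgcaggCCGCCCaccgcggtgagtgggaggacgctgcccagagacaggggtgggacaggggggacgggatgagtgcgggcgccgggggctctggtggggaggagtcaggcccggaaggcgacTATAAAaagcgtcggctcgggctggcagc
Has1: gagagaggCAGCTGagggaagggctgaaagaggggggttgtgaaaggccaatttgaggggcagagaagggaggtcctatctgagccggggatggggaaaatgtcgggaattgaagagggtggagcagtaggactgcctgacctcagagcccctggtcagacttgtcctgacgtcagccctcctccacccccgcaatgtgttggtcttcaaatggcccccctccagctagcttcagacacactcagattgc
The motifs searched, on both strands, were TGANTCA (AP-1), CAGCTG (an E-box), TATAAA and GGGCGG. Upstream of Cemip, TATAAA spans positions -29 to -24 from the start site, and GGGCGG reads on the opposite strand at -168 to -163 and at -145 to -140. Of the 32851 RefSeq promoters of the same length, 12.4% hold TATAAA and 32.7% hold GGGCGG. The Has1 window holds CAGCTG at -242 to -237, which 13% of all promoters hold. The AP-1 motif was found in 1 of the 6 members matched in the promoter table used, Tnfaip6, at -142 to -136, and in 6.75% of all promoters. No match overlapped a match of another motif in the printed windows, and a match of letters is not evidence of a bound site.

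Net39, the targeted gene, was checked first in each library. It is listed under its older symbol Ppapdc3 and had 217 to 321 counts in the Ctrl-labelled libraries and 4340 to 6080 in the cKO-labelled ones. The targeted gene thus goes against the labels, and every direction here follows the labels as given. Total counts were 33860001 to 38201728 in the Ctrl-labelled libraries and 39191239 to 48839910 in the cKO-labelled ones, so that total counts also separate the groups. The TMM factors that scale them separated the groups the other way, at 1.08 to 1.11 and 0.865 to 0.983. Levels are given as CPM, the count relative to the TMM-scaled library size, and log2 fold changes set the cKO-labelled group over the Ctrl-labelled one. Fast-fiber markers summed to 64000 to 172000 CPM, and no marker of the 10 cell type lists was at 0 in every library.

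Cemip was the most unequal of the 9 genes. Its counts were 37, 95 and 138 in Ctrl-labelled libraries 1, 2 and 3, and 3, 3 and 2 in cKO-labelled libraries 1, 2 and 3. Every library labelled Ctrl lay far above every library labelled cKO, where the transcript was close to undetected. Its level was 2.34 ± 1.42 CPM (SD, n = 3) in the Ctrl-labelled libraries and 0.0693 ± 0.0210 CPM (SD, n = 3) in the cKO-labelled ones. The summed counts, 270 against 8, gave a 34-fold ratio after scaling, with an exact (Clopper-Pearson) 95% interval from 17 to 79.5 that covers counting error only. The fitted log2 fold change was -5.03 (standard error 0.66). Within the Ctrl-labelled libraries the highest Cemip value was 3.99 times the lowest, and Ctrl 3 was the highest.

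**Figure D1:**
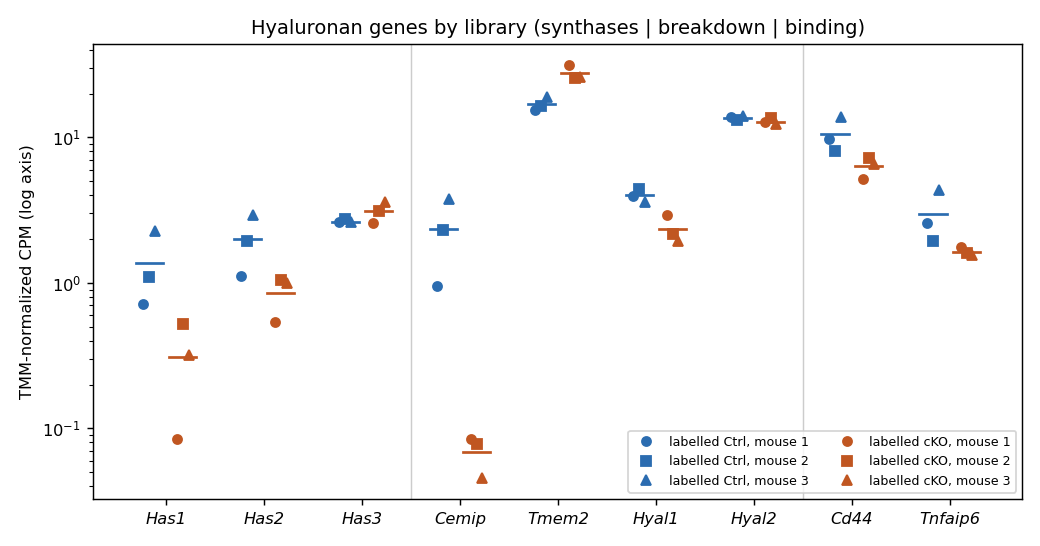
TMM-normalized CPM (log axis) of the 9 hyaluronan genes in each of the 6 libraries, with symbols for the mouse number and a line at each labelled group's mean. Cemip shows the widest gap between the groups, Tmem2 is the only gene with all 3 libraries labelled cKO above all 3 labelled Ctrl, and Has3 and Hyal2 overlap.

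Levels in whole muscle cannot tell fewer cells of a type from less RNA per cell. Markers of several cell types also moved with the labelled groups. Fibro-adipogenic progenitor markers, 6 of 8 higher in the Ctrl-labelled libraries, summed to 1170 to 1340 CPM there and 837 to 1140 in the cKO-labelled ones. Macrophage and leukocyte markers, 10 of 10 higher in the Ctrl-labelled libraries, summed to 191 to 221 CPM there and 91.2 to 127 in the cKO-labelled ones. These groups did not overlap, and their means differed 1.23-fold for the progenitor sum and 1.85-fold for the leukocyte sum. The median log2 fold change of the markers was -0.65 for progenitors and -0.87 for leukocytes. Slow-fiber markers summed to 7890 to 13300 CPM in the Ctrl-labelled libraries and 389 to 3440 in the cKO-labelled ones, a 5.18-fold difference of the means, with 7 of 7 higher in the former. Fast-fiber markers stood the other way, at 64000 to 92700 and 124000 to 172000 CPM, with 6 of 6 higher in the cKO-labelled libraries. From single nuclei, the paper reports a larger share of type I (slow) myonuclei in cKO muscle, opposite to the slow-fiber direction under these labels. Tendon markers overlapped, at 333 to 361 and 163 to 714 CPM. Mural sums (412 to 427 and 329 to 354 CPM) were also higher in each library labelled Ctrl. Endothelial sums were 359 to 369 and 328 to 358 CPM, but 338 to 353 and 318 to 350 CPM, with overlap, without the hyaluronan receptor Lyve1. Of the 7 endothelial markers, 5 were higher in the Ctrl-labelled libraries and 2 in the cKO-labelled ones, with a median log2 fold change of -0.02. Those higher in the Ctrl-labelled libraries past an edgeR adjusted p of 0.05 numbered 5 of 8 for progenitors, 7 of 10 for leukocytes, 2 of 5 for mural cells, 1 of 7 for endothelium and 3 of 7 for slow fibers, against 11.8% of all genes tested. The 1 endothelial marker among them was Lyve1 itself. Of the fast-fiber markers, 5 of 6 were higher in the cKO-labelled libraries at that limit, against 12.6%. Schwann cell (88.1 to 138 and 46.2 to 88.6 CPM), adipocyte (188 to 218 and 185 to 227 CPM) and satellite cell sums (3.88 to 4.10 and 3.64 to 6 CPM) overlapped. The part of these cell types in the levels of the hyaluronan genes was not tested.

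The 3 synthases did not share one pattern. Has1 had 28, 45 and 83 counts in the Ctrl-labelled libraries and 3, 20 and 14 in the cKO-labelled ones, or 1.36 ± 0.812 and 0.307 ± 0.218 CPM (SD, n = 3). Its groups did not overlap, and its log2 fold change was -2.11 (standard error 0.62). Leaving out Ctrl 3 brought it to -1.52 and leaving out cKO 1, which holds only 3 counts, to -1.70. Has2, the main synthase of most mesenchymal cells, lies on chromosome 15 (56665627 to 56694539) and had 44, 80 and 107 counts in the Ctrl-labelled libraries and 19, 40 and 44 in the cKO-labelled ones. That is 1.12 to 2.93 CPM against 0.536 to 1.04 CPM, again without overlap, and a log2 fold change of -1.20 (standard error 0.40). Cemip, Has1 and Has2 were each highest in Ctrl 3 and lowest in Ctrl 1 among the Ctrl-labelled libraries, and Has1 and Has2 were lowest in cKO 1 among the cKO-labelled ones.

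Has3, on chromosome 8 (106870242 to 106884566), was the steadiest synthase. It had 102, 113 and 95 counts in the Ctrl-labelled libraries and 91, 121 and 159 in the cKO-labelled ones, or 2.60 to 2.73 and 2.57 to 3.61 CPM, and the groups overlapped. Its log2 fold change of 0.24 (standard error 0.17) changed sign to -0.02 when total counts replaced TMM factors, a scaling that moves the median of all genes tested to -0.27. The antisense gene Has2os shares 4.3% of the exon bases of Has2 and had 0 to 4 counts in each library. The opposite-strand gene Chtf8 shares 5.52% of those of Has3 and was itself higher in the Ctrl-labelled libraries (log2 fold change -0.44, standard error 0.08, edgeR adjusted p = 0.00935). Whether the counts used strand is not given in the sources used here, so reads in these shared bases cannot be assigned to one gene.

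Among the genes of hyaluronan breakdown, Tmem2 stood opposite to its relative Cemip. Tmem2 (chromosome 19, 21778342 to 21858360) showed 15.5, 16.4 and 18.8 CPM in Ctrl-labelled libraries 1, 2 and 3 and 31.6, 25.4 and 26.2 CPM in cKO-labelled libraries 1, 2 and 3. It was the only gene of the 9 whose libraries labelled cKO all lay above the Ctrl-labelled ones. Its log2 fold change was 0.72 (standard error 0.12), a 1.64-fold difference, and 0.46 with total counts.

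The hyaluronidase genes Hyal1 and Hyal2 lie beside each other on chromosome 9. Hyal2 (107567945 to 107572779) had 13.1 to 14.1 CPM in the Ctrl-labelled libraries and 12.3 to 13.6 in the cKO-labelled ones, and its log2 fold change of -0.09 was as large as its standard error of 0.09. Its values overlapped between groups and varied at most 1.10-fold within either. Hyal1 (107576927 to 107581710) had 3.98, 4.39 and 3.61 CPM in the Ctrl-labelled libraries and 2.91, 2.18 and 1.95 in the cKO-labelled ones. Every library labelled Ctrl was higher for Hyal1, with a log2 fold change of -0.77 (standard error 0.19). Its locus is shared: 50.8% of its exon bases are shared on the same strand with Naa80, listed as Nat6, so its level is uncertain. Nat6 had 19.2 ± 2.30 CPM (SD, n = 3) in the Ctrl-labelled libraries and 18.5 ± 1.21 CPM (SD, n = 3) in the cKO-labelled ones, with a log2 fold change of -0.05 (standard error 0.11, edgeR adjusted p = 0.749).

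The hyaluronan-binding genes Cd44 and Tnfaip6 were both higher in each library labelled Ctrl. Cd44 (chromosome 2, 102811141 to 102901665) showed 9.68, 8.01 and 13.8 CPM in the Ctrl-labelled libraries and 5.19, 7.27 and 6.57 in the cKO-labelled ones. The nearest libraries of the labelled groups were Ctrl 2 and cKO 2, and the log2 fold change was -0.72 (standard error 0.22), and -0.48 without Ctrl 3. Tnfaip6 (chromosome 2, 52038009 to 52056686) showed 2.58, 1.95 and 4.35 CPM against 1.75, 1.61 and 1.55 CPM. Its log2 fold change was -0.85 (standard error 0.30), and -0.47 without Ctrl 3, the highest library for both genes. Leukocytes are a known source of Cd44, and the leukocyte markers stood apart in the same direction, by 1.85-fold against 1.65-fold for Cd44. Their part in the Cd44 level was not tested.

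Over the whole list, 6 of the 9 genes had all libraries labelled Ctrl above the cKO-labelled ones, where 21.9% of the 14180 genes tested did, and 1 had the opposite, where 22% did. Counting genes past an adjusted p of 0.05 and a fold change of 2 in edgeR's quasi-likelihood test, 2 of the 9 (Cemip and Has1) were higher in the Ctrl-labelled libraries, against 3.92% of all genes tested, and 0 in the cKO-labelled ones, against 2.13%. At an unadjusted p under 0.05, 6 of the 9 were higher in the Ctrl-labelled libraries and 1 in the cKO-labelled ones, against 19.6% and 19.2% of all genes tested. DESeq2 called 3 and 0 at the adjusted p and fold limits, against 3.92% and 2.29% of the genes it tested. Without the fold limit, edgeR's counts were 3 (Cemip, Has1 and Hyal1) and 1 (Tmem2), against 11.8% and 12.6% of all genes tested. Of these 4, Has1 no longer passed in 5 of the 6 fits without 1 library (all but that without cKO 2), and Hyal1 in 4 (those without Ctrl 1, Ctrl 2, cKO 2 or cKO 3). The log2 fold change of Hyal1 was then -0.772, -0.695, -0.74 and -0.669. The median log2 fold change of the 9 was -0.77, against -0.015 over all genes tested. Because the genes were chosen with this comparison known, nothing is read from these counts. All 9 passed the expression filter, but Cemip reached its minimum in 0 of 3 libraries labelled cKO and Has1 in 2 of 3, so that both passed through the group where they are high.

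**Figure D2:**
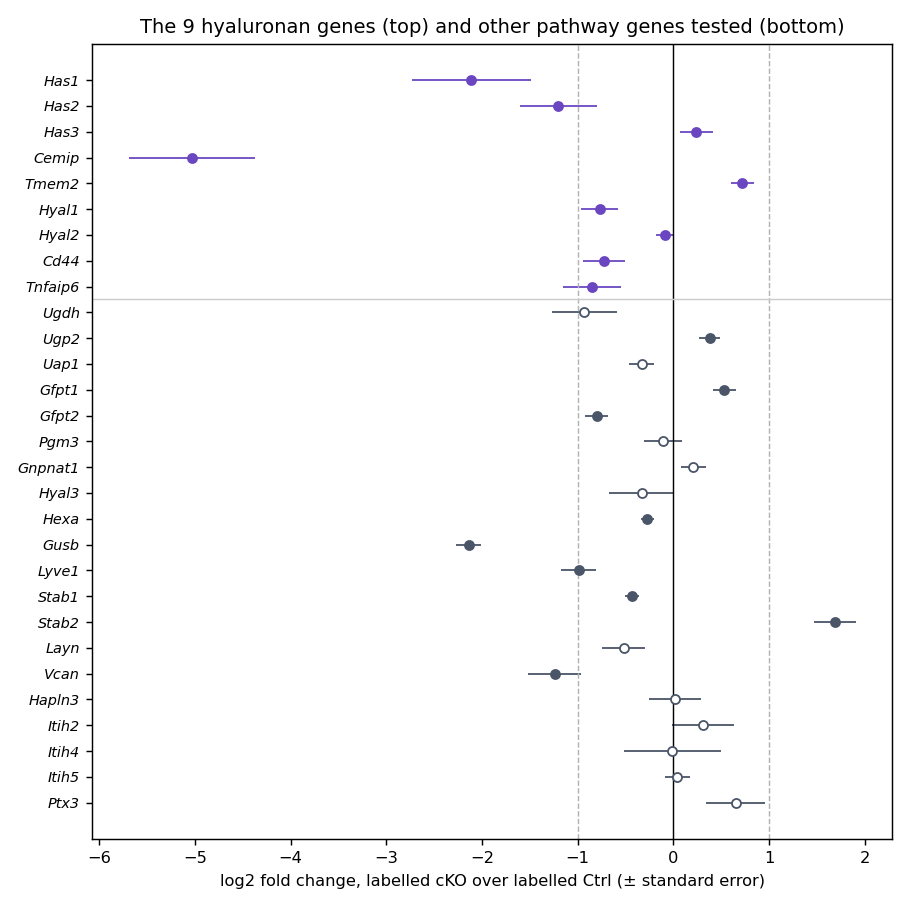
Log2 fold change with its standard error, labelled cKO over labelled Ctrl, for the 9 genes (top) and 20 of the 21 other hyaluronan pathway genes tested (bottom, filled where the adjusted p was under 0.05), with dashed lines at a fold change of 2. Cemip lies furthest left at -5.03, Gusb is the lowest of the other genes at -2.14 and Stab2 the highest at 1.69.

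Levels were compared between genes as CPM per kilobase of exon (RPKM). In the Ctrl-labelled libraries, Hyal2 was highest at 4.14 ± 0.154 RPKM (SD, n = 3), above Tmem2 (1.98 ± 0.200), Tnfaip6 (1.73 ± 0.726) and Cd44 (1.55 ± 0.438), each overlapping the next of these 3. Hyal1 followed at 1.06 ± 0.104 RPKM, but its highest library (1.16) came close to the lowest of Cd44 (1.18) and lay above the lowest of Tnfaip6 (1.14), and its rank is uncertain because of the exon bases it shares with Nat6. Has2 (0.470 ± 0.213), Has3 (0.414 ± 0.0114), Has1 (0.300 ± 0.180) and Cemip (0.191 ± 0.116) came last, each overlapping the next. In the cKO-labelled libraries the order was the same except that Has3 (0.487 ± 0.0820 RPKM) stood before Has2 (0.203 ± 0.0660), and Has3, Has2, Has1 (0.0680 ± 0.0482) and Cemip (0.00567 ± 0.00171) did not overlap one another. Tnfaip6 (0.956 ± 0.0611), Cd44 (0.936 ± 0.156), Hyal1 (0.622 ± 0.132) and Has3 each overlapped the next. Tmem2, at 3.26 ± 0.39 RPKM, came close below Hyal2 at 3.90 ± 0.196 but did not overlap it.

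Shares within a library do not depend on how libraries are scaled. Has3 made up 49.1%, 38% and 25.4% of the summed synthase RPKM in the Ctrl-labelled libraries and 73.5%, 57.8% and 64.9% in the cKO-labelled ones. Has1 made up 19.0% to 31.4% and 3.42% to 13.5%, and Has2 31.9% to 43.2% and 23.1% to 28.8%, so the synthase RNA of the cKO-labelled libraries was mostly Has3. The summed synthase level itself overlapped between groups, at 0.832 to 1.6 and 0.548 to 0.873 RPKM.

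Among the 4 breakdown genes, the share of Tmem2 was 25.5% to 28.4% in the Ctrl-labelled libraries and 38.9% to 44.4% in the cKO-labelled ones. Cemip made up 1.09% to 3.98% in the former and 0.0507% to 0.0830% in the latter, and Hyal1 12.3% to 16.0% and 7.06% to 9.23%. Hyal2 was the largest share in every library, at 46.3% to 58.5%. The summed breakdown level overlapped between groups, at 7.10 to 7.75 and 7.33 to 8.34 RPKM. Tmem2 was 7.14 to 23.5 times as high as Cemip in the Ctrl-labelled libraries and 469 to 828 times in the cKO-labelled ones, the latter resting on 2 or 3 Cemip counts per library.

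**Figure D3:**
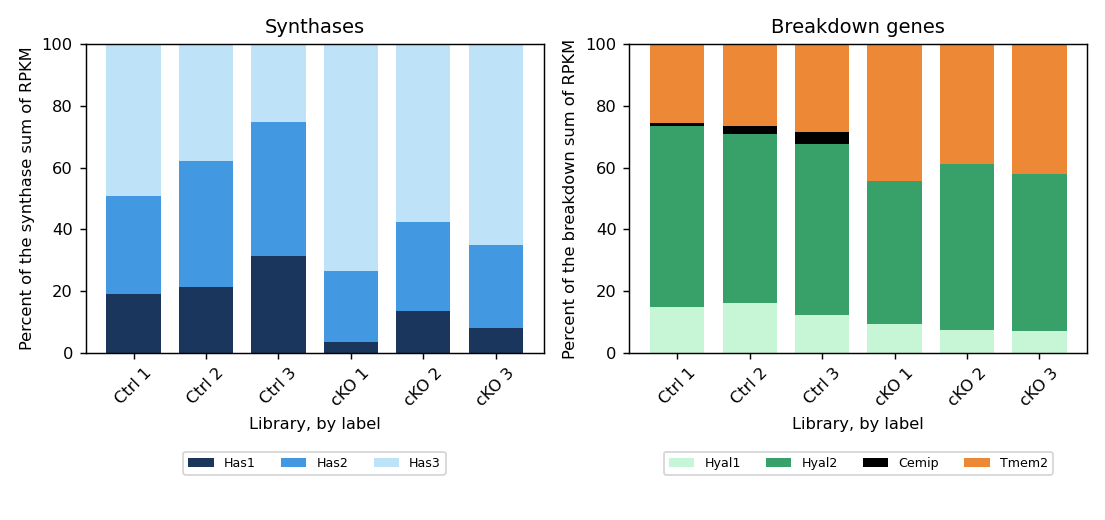
Share of each synthase in the summed synthase RPKM (left) and of each breakdown gene in the summed breakdown RPKM (right), in percent, for each library by its label. Has3 takes 57.8% to 73.5% of the synthase sum in the cKO-labelled libraries, Tmem2 takes more of the breakdown sum there, and the Cemip band is too thin to see.

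The genes whose profile over the 6 libraries lay nearest to that of Cemip were Clvs1, Hsf2bp, Sidt1, Gpnmb and Rrad. They were picked among 12352 genes with a mean of at least 1 CPM by the root mean square distance of centred log2 CPM, which was 0.167 for Clvs1 and 0.385 to 0.425 for the others. Clvs1, which encodes a lipid-binding protein of clathrin-coated vesicles, had 56, 134 and 166 counts in the Ctrl-labelled libraries and 6, 4 and 3 in the cKO-labelled ones. As for Cemip, Ctrl 1 was the lowest and Ctrl 3 the highest of its labelled group, and cKO 3 the lowest of all. Because the 5 genes were picked by nearness to Cemip, such likeness follows from the choice and is not evidence. Like Cemip, Clvs1 stayed below the minimum of the expression filter in each cKO-labelled library. Gpnmb, a membrane glycoprotein abundant in activated macrophages, had 41.3 to 64.6 CPM in the Ctrl-labelled libraries and 2.11 to 4.10 in the cKO-labelled ones. Rrad, a muscle small GTPase that restrains calcium channels, had 54.2 to 132 and 2.45 to 7.27 CPM. With a prior count of 0.5 in place of 2, 4 of these 5 genes stayed among the nearest.

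**Figure D4:**
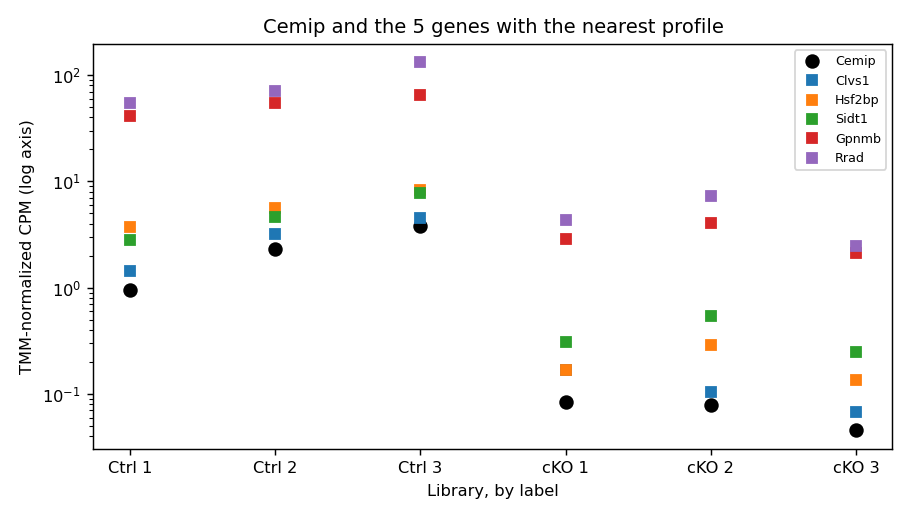
TMM-normalized CPM (log axis) of Cemip (black circles) and of the 5 genes with the nearest profile (squares) in the 6 libraries, by label. Each gene is higher in all 3 libraries labelled Ctrl, which follows from choosing genes near the Cemip profile. Rrad, from 2.45 to 132 CPM, is the most abundant of them.

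The rest of the pathway was examined with 36 further genes listed by function, of which 21 passed the expression filter. Of these 21, 2 (Gusb and Vcan) were higher in the Ctrl-labelled libraries past an adjusted p of 0.05 and a fold change of 2, and 1 (Stab2) was higher in the cKO-labelled ones, against 3.92% and 2.13% of all genes tested. Without the fold limit the counts were 6 and 3, against 11.8% and 12.6%, while 12 did not pass. The median log2 fold change of the 21 was -0.11, against -0.015 over all genes tested. Another 10 genes had counts below the filter, at most 24 in any library, and 5 (Hyal4, Hyal5, Hyal6, Spam1 and Ambp) had 0 counts in all 6 libraries.

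Of the 7 genes that make the sugar precursors, 1 was higher in the Ctrl-labelled libraries and 2 in the cKO-labelled ones at the adjusted p, against 11.8% and 12.6% of all genes tested. Glutamine-fructose-6-phosphate transaminase, the entry enzyme of the hexosamine pathway, has genes that stood in opposite directions. Gfpt1 had 39.4 CPM (mean, n = 3) in the Ctrl-labelled libraries and 56.8 in the cKO-labelled ones, with a log2 fold change of 0.53 (standard error 0.12, edgeR adjusted p = 0.0236). Gfpt2 had 22.4 and 12.9 CPM, with a log2 fold change of -0.80 (standard error 0.12, edgeR adjusted p = 0.0055). Ugp2, which makes UDP-glucose, had 607 and 792 CPM, with a log2 fold change of 0.38 (standard error 0.11, edgeR adjusted p = 0.0461). Gfpt1 and Ugp2 lost their call with total counts (log2 fold changes 0.28 and 0.13, edgeR adjusted p = 0.138 and 0.413), though relative to the median of all genes under that scaling they stood at 0.55 and 0.40. Gfpt1 also lost it without Ctrl 1, Ctrl 2, cKO 1 or cKO 3 (edgeR adjusted p = 0.0858, 0.0736, 0.0669 and 0.0635), with log2 fold changes of 0.47, 0.45, 0.52 and 0.54. Ugp2 lost it with each library left out in turn (edgeR adjusted p from 0.0562 to 0.172), with log2 fold changes from 0.27 to 0.43. Ugdh, the enzyme that makes the UDP-glucuronate the synthases use, had 14.2, 14.4 and 29.0 CPM in the Ctrl-labelled libraries and 7.96, 14 and 8.18 in the cKO-labelled ones and did not pass (log2 fold change -0.93, standard error 0.34, edgeR adjusted p = 0.0895). Uap1, Pgm3 and Gnpnat1 did not pass either, with log2 fold changes from -0.33 to 0.21.

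Of the genes that complete breakdown, Gusb differed most. Gusb, the lysosomal beta-glucuronidase, had 44.3, 43.0 and 49.0 CPM in the Ctrl-labelled libraries and 9.23, 12.2 and 9.34 in the cKO-labelled ones, a log2 fold change of -2.14 (standard error 0.13, edgeR adjusted p = 0.00055). Its groups lay far apart with little spread within either, and the call held in all 12 alternatives. Hexa, which encodes a lysosomal glycosidase chain, had 60.6 to 66.9 and 52.8 to 52.9 CPM (log2 fold change -0.27, standard error 0.07, edgeR adjusted p = 0.0285). Hexa no longer passed in 5 of 6 fits without 1 library, all but that without cKO 2 (edgeR adjusted p from 0.054 to 0.0897, log2 fold changes from -0.30 to -0.23), nor without the expression filter (0.0509). Hyal3 had 11 to 23 counts per library and did not pass (log2 fold change -0.33, standard error 0.34, edgeR adjusted p = 0.513). Hyal4, Hyal5, Hyal6 and Spam1, the last a sperm hyaluronidase, had 0 counts in each library, which allows at most 0.0847 CPM (3 counts).

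The scavenger and lymphatic receptors also split. Stab2, an endocytic hyaluronan receptor of sinusoidal endothelium, had 5.03, 7.43 and 8.40 CPM in the Ctrl-labelled libraries and 17.8, 26.5 and 23.1 in the cKO-labelled ones, a log2 fold change of 1.69 (standard error 0.22, edgeR adjusted p = 0.00391). Its relative Stab1, found on macrophages and endothelium, had 40.8 to 43.8 and 29.7 to 32.8 CPM (-0.43, standard error 0.07, edgeR adjusted p = 0.00787). Lyve1, a receptor of lymphatic endothelium and some macrophages that is also among the endothelial markers used here, had 13.2 to 20.5 and 7.30 to 9.84 CPM (-0.99, standard error 0.18, edgeR adjusted p = 0.0113). All 3 calls at the adjusted p held in each of 12 alternatives. Of the 4 receptors tested, 2 thus passed higher in the Ctrl-labelled libraries and 1 in the cKO-labelled ones, against 11.8% and 12.6% of all genes tested. Layn did not pass (-0.52, standard error 0.22, edgeR adjusted p = 0.13), and Hmmr had 0 to 10 counts per library.

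Among matrix proteins that bind hyaluronan, Vcan stood out. Vcan, the large aggregating proteoglycan versican, had 13.6, 11.6 and 20.9 CPM in the Ctrl-labelled libraries and 4.57, 8.49 and 6.39 in the cKO-labelled ones, a log2 fold change of -1.24 (standard error 0.28, edgeR adjusted p = 0.021). The groups did not overlap, but the call at both limits was lost without Ctrl 1 (-1.32), Ctrl 3 (-0.96), cKO 1 (-1.06) or cKO 3 (-1.24). Hapln3 had a log2 fold change of 0.02 (standard error 0.27), and 7 other proteoglycan and link protein genes had at most 24 counts in any library. Of the substrates and partners of Tnfaip6, Itih5 had 41.2 and 42.4 CPM (mean, n = 3) in the Ctrl-labelled libraries and labelled cKO (log2 fold change 0.04, standard error 0.13). Itih2, Itih4 and Ptx3 did not pass, with log2 fold changes of 0.31, -0.01 and 0.65.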

How the data were processed

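Bulk RNA-Seq counts of GP muscle were analysed for 3 mice labelled Ctrl and 3 labelled cKO. Reads were trimmed (Trimmomatic 0.39), mapped to mm10 (HISAT2 2.1.0) and assigned to genes (featureCounts 1.6.2) by the authors, who deposited raw counts without normalization. The annotation and strand setting of the counting are not given in the sources used here. Groups follow the sample labels. The test was that of edgeR 4.0.16 in R 4.3.3 (TMM factors, filterByExpr, glmQLFit and glmQLFTest, Benjamini-Hochberg adjustment over the 14180 genes tested), with DESeq2 1.42.0 as an alternative. Standard errors were derived from the F statistic. The steps were tested on simulated data. Between replicates, the chi-square per degree of freedom was 29.5 to 101, so no library repeats another, and whether mice shared a litter is not given in the labels. The members and lists were chosen with earlier results of these data known. Named genes are the 9 members, the pathway genes with an adjusted p under 0.05, the 5 nearest profiles to Cemip and Net39, and other pathway genes that a sentence on their group needed were named after their values were seen. Exon lengths and positions are from GENCODE M21 on GRCm38 (mm10), and promoters from a table of RefSeq start sites on GRCm38.p6, in which 6 of the 9 members were matched. Of the pathway list, 1 gene is not reported here, though it is included in the counts.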

Additional observations from a re-analysis of the deposited data

How the results depend on the processing

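The log2 fold change of Cemip ran from -5.41 to -4.51 over the 11 alternatives that kept it, the extremes being without Ctrl 1 and without Ctrl 3. Requiring at least 10 counts in every library removed Cemip and Has1 and left 0 members called higher in the Ctrl-labelled libraries. Of the 13280 genes tested under that rule, 448 were called higher there, so nothing is read from the 0. Leaving out a library gave 1 to 2 such members: Has1 lost its call in 5 of 6 of these fits (log2 fold changes -2.42 without Ctrl 1, -2.25 without Ctrl 2, -1.52 without Ctrl 3, -1.70 without cKO 1 and -2.14 without cKO 3), while Has2 gained one without Ctrl 1 (-1.49). For the other pathway genes these fits gave 1 to 3 called higher in the Ctrl-labelled libraries, with 1 without Ctrl 1 or cKO 1, and 1 to 2 in the cKO-labelled ones, with 2 without Ctrl 3. Total counts in place of TMM factors moved the median of all genes to -0.27, called 5 members and 5 pathway genes higher in the Ctrl-labelled libraries, and turned Has3 to -0.016. Of all genes tested, 1023 were then called higher in the Ctrl-labelled libraries and 157 in the cKO-labelled ones, against 556 and 302 with TMM. Without the fold limit these were 1668 and 1786, with 1 member higher in the cKO-labelled libraries and 6 and 3 pathway genes. Leaving out a library gave 398 to 685 and 172 to 387, the 172 without Ctrl 1. The labels tie the mouse numbers to nothing shared, same-numbered mice deviated with correlations of 0.084, -0.215 and -0.002, and not every library correlated best with its own number. With the mouse number as a replicate block, 448 and 236 genes were called, and 3 members, Has2 being added. The block left 2 and 1 pathway genes called at both limits and put Cemip at -4.96, while the edgeR adjusted p was above 0.05 for the member Hyal1 (0.0565) and for Ugp2 (0.0962), Gfpt1 (0.0525) and Hexa (0.0856). The settings, all fixed with earlier results known, gave 214 values for 18 genes, Cemip included. By the adjusted p and fold limits together, 194 had the direction and call first reported, 9 lost the call, 10 gained one and 1 changed sign. By the adjusted p alone, 43 changed side. Cemip rests on 2 or 3 counts in each library labelled cKO, although these had the larger total counts before TMM scaling.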
